A study of Rattus norvegicus with 20 samples.

Results

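In the rat soleus, 228 genes moved in opposite directions, relative to uninjured muscle, after complete spinal cord transection and after contusion followed by swimming. They were chosen from these measurements. A gene was taken when all 4 transection libraries lay outside the range of the 4 uninjured libraries, and all 4 swimming libraries lay outside it on the other side. Values were CPM (counts scaled to a common library size), after TMM scaling in edgeR, a method that sets libraries level on the bulk of their genes. The mean over all 20 libraries had to be at least 1 CPM, and the ratio of the transection to the uninjured mean had to lie between 0.25 and 4. Of 24613 genes in the table, 13398 passed the filter on low counts, and 11566 of these had a mean of at least 1 CPM. Of the 11566, 44 were higher after transection and lower after swimming (0.38%), and 184 were lower after transection and higher after swimming (1.59%). A gene that the rule excludes by name did not lie outside both ranges.

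The animals were Sprague-Dawley rats in 5 groups of 4 libraries; the labels number the libraries as replicates and the design text has soleus taken from each animal, without tying a library to a rat. Uninjured rats had no spinal cord injury and are labelled 11.5 weeks. Complete_Transection rats had the cord cut through at T2, in the upper thoracic spine, and muscle was taken at 8.5 weeks. Contusion rats received a 25 g-cm impact at T2, which leaves part of the cord in place, and were sampled at 11.5 weeks. SWIM and SWW rats had the same contusion, began swimming or shallow water walking at 2.5 weeks on 5 days a week for 10 weeks, and were sampled at 13.5 weeks. The design text gives small shared cages from 4 days on for all animals, and no exercise for the first 3 groups. Time after injury therefore cannot be told apart from the treatment in the comparisons of transection or of an exercise group with the other groups.

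The soleus is a postural muscle of the lower hind limb, built largely of slow, oxidative fibres that are active while an animal stands. Its gene expression is known to depend on nerve activity and on load: muscle that loses both becomes smaller and takes on features of fast fibres. Swimming moves the limbs with the body weight held by water, while walking in shallow water keeps part of that weight on the feet. The files carry Ensembl identifiers, and the name tables used here hold no Ensembl identifiers, so genes are given by identifier and marker genes of soleus and of other cell types were not examined. In whole muscle, fewer cells of a type and less RNA per cell cannot be told apart.

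Libraries held 21165832 to 39729930 counts. The transection group stood apart in how its counts were distributed. Its scaling factors ran from 0.71 to 0.95 and the 50 most abundant genes took 53.7 to 60.2% of its counts. In the other 4 groups the factors ran from 0.93 to 1.18 and the share from 43.9 to 51.3%. Swimming libraries had factors of 1.06 to 1.18. Transection library 3 had the lowest factor, 0.71, and the fewest genes with a count, 13837. The part of this uneven distribution in the choice of genes was not tested; the choice under other scalings is given further on.

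The 184 genes that were lower after transection and higher after swimming made up the larger set and had the larger changes. Their ratio of transection to uninjured means had a median of 0.55, with a range of 0.268 to 0.856. Their ratio of swimming to uninjured means had a median of 1.61, with a range of 1.14 to 3.28. The means of swimming and transection differed by a median of 2.93-fold. In 101 of the 184 both changes passed 1.5-fold, and in 14 both passed 2-fold. The change after transection was the larger of the 2 on the log2 scale in 127 genes and the change after swimming in 57. These values chose the genes, so they are a description and no test is given for them.

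The 44 genes that were higher after transection and lower after swimming changed less. Their ratio of transection to uninjured means had a median of 1.32 and reached 1.95. Their ratio of swimming to uninjured means had a median of 0.789, with a lowest value of 0.359. Both changes passed 1.5-fold in 3 of the 44 and 2-fold in 0. On the log2 scale the change after transection was the larger in 25 genes and the change after swimming in 19, so neither side led clearly.

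**Figure D1:**
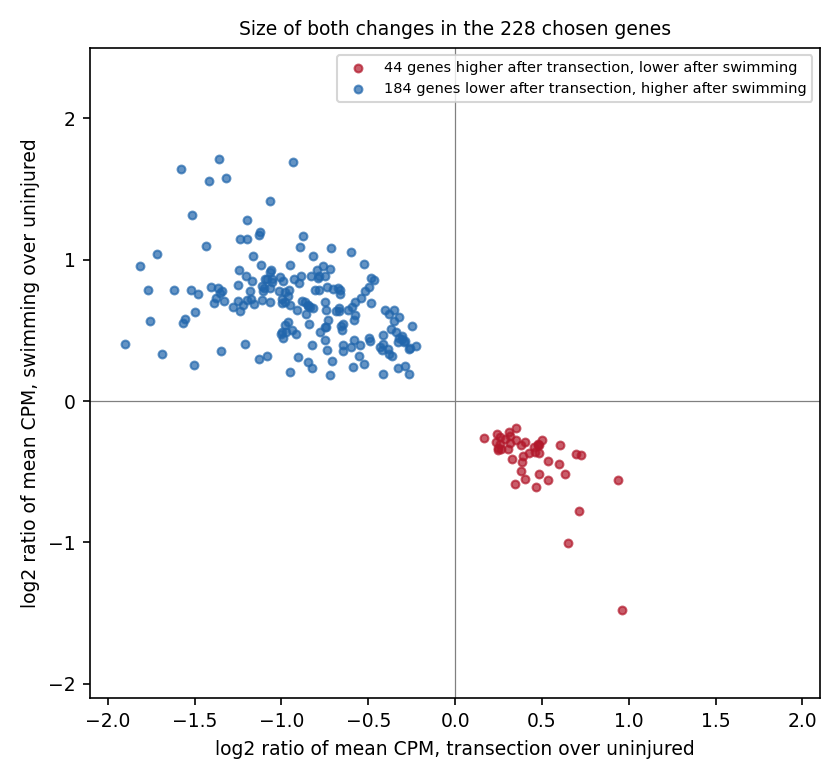
Each point is a chosen gene, placed by the log2 ratio of mean CPM of transection to uninjured (horizontal) and of swimming to uninjured (vertical). The 184 genes of the upper left reach lower transection ratios and higher swimming ratios than the 44 genes of the lower right reach in their directions, and the empty quadrants follow from the rule.

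Many genes met the rule narrowly. The distance between the nearest transection and uninjured libraries had a median of 0.31 on the log2 scale among the 184 genes and 0.09 among the 44. The distance between the nearest swimming and uninjured libraries had medians of 0.18 and 0.08. At least 1 of the 2 distances was under 0.1 in 80 of the 184 genes (43.5%) and in 35 of the 44 (79.5%). The limits on abundance and ratio decided little. Among the 44, the lowest mean was 1.48 CPM and the largest ratio 1.95, and 0 genes lay outside either limit. Among the 184, the lowest mean was 1.44 CPM and the lowest ratio 0.268, while 2 further genes lay under the abundance limit, the nearer at 0.843 CPM, and 1 lay past the ratio limit at 0.23.

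Single requirements of the rule were common in the table. All 4 transection libraries lay above the uninjured range in 14.6% of the 11566 genes and below it in 16.5%. All 4 swimming libraries lay above it in 11.8% and below it in 12.7%. Since both comparisons use the same uninjured libraries, no expected number of opposite genes is given.

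The size of the smaller set depended on the scaling. Scaled by library totals alone, 2 genes lay above the uninjured range after transection and lay below it after swimming, and both were among the 44. In the other direction 302 genes met the rule, 169 of them among the 184, so the smaller set made up 0.66% of the chosen genes instead of 19.3%. This scaling moved the median log2 difference of all tested genes from 0.02 to -0.32 for transection minus uninjured, and from 0.04 to 0.12 for swimming minus uninjured. The median of the 44 genes for transection minus uninjured moved from 0.40 to 0.06 and 28 of 44 stayed above 0. A change of scaling moves all genes of a library together, so distances from the median of all genes could hardly change. For the 44 genes this distance was 0.38 under either scaling. For the 184 genes the distance from the median of all genes was -0.88 with the scaling used and -0.86 with library totals. TMM sets libraries level on the bulk of their genes, so the rise of the 44 genes after transection is relative to that bulk. All 184 genes of the larger set were below uninjured muscle after transection under both scalings. The rule had chosen them as lower, and library totals lowered transection values further, so this is no check on the set. With library totals 9910 of the 13398 tested genes were below 0 for transection minus uninjured. With median-of-ratios scaling 33 and 190 genes met the rule, of which 31 and 180 were shared.

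The 184 genes were mostly of middle abundance, while the 44 genes leaned toward higher abundance. The mean over 20 libraries had a median of 18.5 CPM among the 184 genes and 27.9 CPM among the 44, against 15.2 CPM for all 11566 genes. Of the 184 genes 70.1% lay between 10 and 100 CPM and 4.35% above 100 CPM, while 52.1% and 9.3% of all genes did. Of the 44 genes 65.9% lay between 10 and 100 CPM and 20.5% above 100 CPM. The most abundant gene of each set had a mean of 677 CPM and 704 CPM respectively. When the 11566 genes were divided by abundance into 10 classes, the most abundant class held 11 of the 44 and 9 of the 184, and the least abundant held 1 and 4. Lengths were not used here, so these are levels per library and not per length.

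By the size of the smaller of its 2 changes, ENSRNOG00000042788 led the genes that were lower after transection and higher after swimming. Uninjured libraries held 0.638, 1.17, 1.28 and 1.48 CPM, transection libraries 0.388, 0.546, 0.221 and 0.374 CPM, and swimming libraries 1.95, 4.55, 3.76 and 4.00 CPM. The highest transection library lay below the lowest uninjured library, and swimming library 1 was the lowest of its group and still above the uninjured range. Contusion libraries were at 1.06, 1.21, 1.38 and 1.67 CPM and walking libraries at 2.08, 1.20, 1.69 and 1.47 CPM, so both groups overlapped the uninjured range. The log2 difference was -1.56 (SE 0.34) for transection minus uninjured and 1.63 (SE 0.30) for swimming minus uninjured, and the swimming mean was 9.32 times the transection mean. Walking minus contusion was 0.26 (SE 0.30), a difference smaller than its error and not past the threshold (edgeR quasi-likelihood test, adjusted p over all genes = 1.00). Without walking library 1 this difference was 0.12. The gene was weakly expressed: the 4 transection libraries held 12, 15, 5 and 13 counts, so counting error is part of their spread.

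ENSRNOG00000011063, the next in that direction, was more abundant. Its uninjured libraries held 5.38, 6.95, 7.95 and 6.59 CPM, its transection libraries 3.36, 2.36, 0.662 and 3.69 CPM, and its swimming libraries 16.1, 29.9, 14.5 and 18.6 CPM. Transection library 3 was the lowest and swimming library 2 the highest of all 20. Contusion libraries, at 6.98, 7.64, 8.78 and 7.86 CPM, stayed near the uninjured range. All 4 walking libraries lay above the uninjured range. Walking library 1 stood at 14.5 CPM, level with the lowest swimming library, while the other walking libraries held 9.32, 8.10 and 8.22 CPM. The log2 difference was -1.39 (SE 0.33) for transection and 1.55 (SE 0.32) for swimming against uninjured muscle. For walking minus contusion the value was 0.36 (SE 0.32), not past the threshold (edgeR quasi-likelihood test, adjusted p = 1.00), and 0.14 without walking library 1.

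In the other direction ENSRNOG00000049067 came first. It was at 1.56, 2.48, 2.76 and 3.60 CPM in uninjured libraries, 4.01, 5.06, 6.49 and 4.67 CPM after transection, and 1.19, 0.883, 0.768 and 0.894 CPM after swimming. The 3 groups did not overlap, and the transection mean was 5.42 times the swimming mean. Contusion libraries held 2.84, 1.70, 3.01 and 2.97 CPM and walking libraries 1.64, 2.16, 1.69 and 1.76 CPM, both within the uninjured range. Its log2 difference was 0.95 (SE 0.24) after transection and -1.47 (SE 0.26) after swimming. Walking minus contusion was -0.54 (SE 0.25), with an unadjusted p of 0.0442 that did not pass after adjustment (edgeR adjusted p = 1.00). With library totals the transection difference was 0.61, and the gene still met the rule.

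ENSRNOG00000011976 followed, with 18.3, 21.5, 17.2 and 17.8 CPM in uninjured libraries. After transection it stood at 24.5, 25.2, 48.4 and 24.2 CPM, so transection library 3 stood far above the other 3. After swimming it was at 10.3, 11.1, 9.82 and 12.4 CPM. Contusion libraries spread widely, at 16.3, 23.4, 11.8 and 11.4 CPM, from below to above the uninjured range, while all 4 walking libraries lay below it at 13.6, 13.9, 13.3 and 11.9 CPM. The log2 difference after transection was 0.71 (SE 0.22), but 0.38 without transection library 3 and 0.33 with library totals, where the gene no longer met the rule. After swimming it was -0.78 (SE 0.22), and walking minus contusion was -0.26 (SE 0.22), not past the threshold (edgeR adjusted p = 1.00). Without contusion library 2 the latter was -0.00085.

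**Figure D2:**
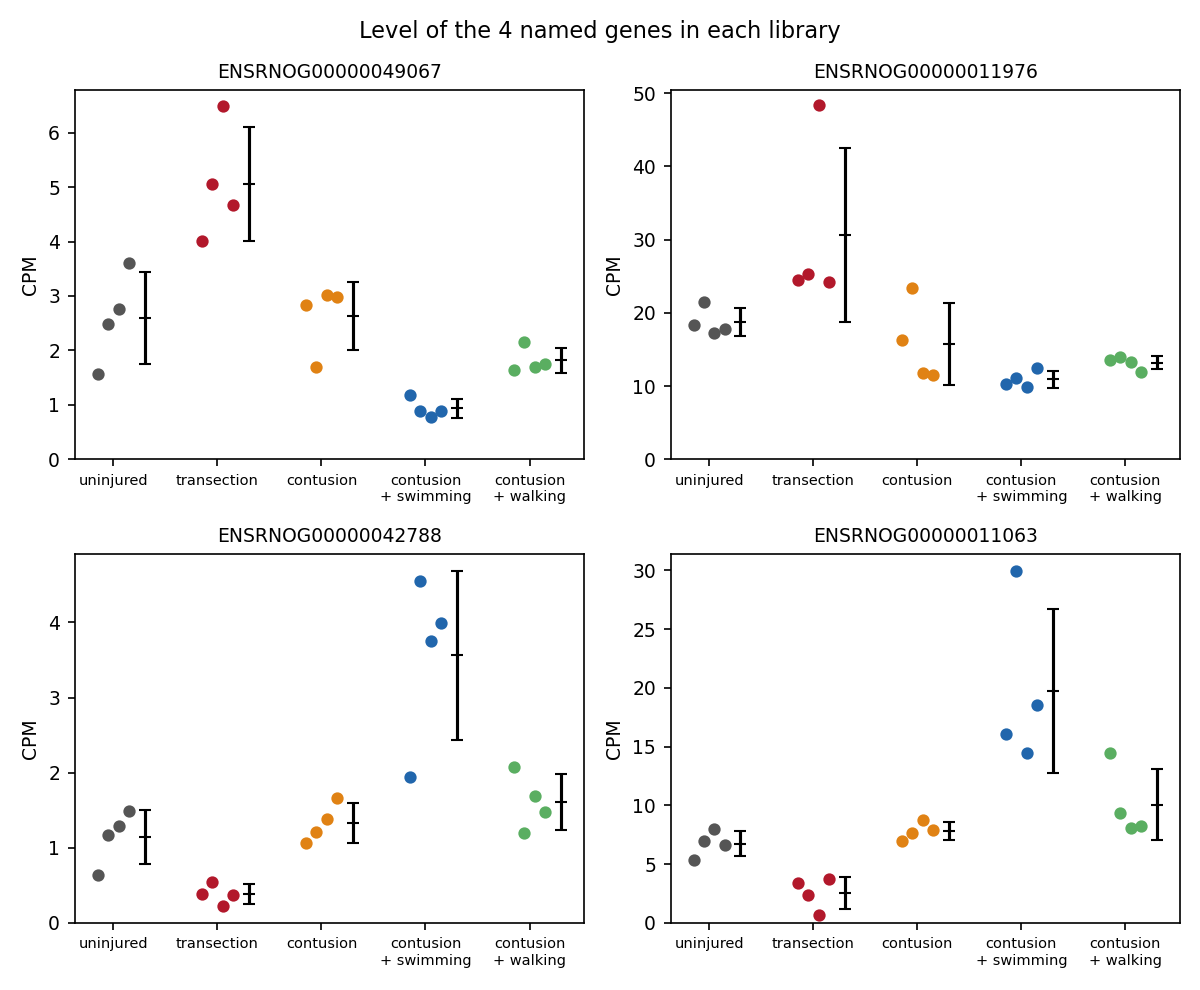
CPM of the 4 named genes in each of the 20 libraries, with points in order of replicate number and a bar giving the group mean and SD (n = 4). Transection and swimming points lie on opposite sides of the uninjured points in each panel, as the rule requires. The contusion and walking means lie between the transection and swimming means, where the rule leaves any group near uninjured muscle.

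How much the choice depended on each library was read by choosing genes without it and then looking at it. The uninjured libraries and the scaling stayed the same. Chosen without a given transection or swimming library, 187 to 234 genes were lower after transection and higher after swimming, and the library left out lay past the uninjured range on the stated side in 78.6% (swimming library 3) to 98.9% (transection library 3) of them. Over all 11566 genes the same libraries lay past the range on that side in 28.6 to 36.7%. In the other direction 49 to 110 genes were chosen, and the share ran from 44 of 110 (swimming library 2) and 45.8% (transection library 4) to 89.8% (transection library 3), against 31.1 to 34.5% of all genes. Swimming library 2 lay on the stated side of the uninjured mean in 63 of the 110 genes chosen without it (57.3%), against 51.6% of all genes. These shares are descriptive, since the genes overlap between choices. The genes in which the left-out library lay past the range were nearly the main set each time. Each share therefore mostly reflects how many genes were chosen without that library, and it is no independent support for the choice. The shares of all genes are not a matched baseline, since the chosen genes already had the other libraries past the same uninjured range.

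Libraries within a group did not take equal parts. Transection library 3 was the lowest of its group in 148 of the 184 genes and the highest in 34 of the 44, while over all 11566 genes it was lowest in 35.3% and highest in 34.6%. Summed up as the median over genes of the log2 level against the uninjured mean, the 184 genes stood at -0.63, -0.85, -1.37 and -0.69 in transection libraries 1 to 4. Swimming libraries stood closer together, at 0.56, 0.65, 0.60 and 0.70. For the 44 genes the transection libraries were at 0.28, 0.41, 0.63 and 0.29 and the swimming libraries at -0.34, -0.36, -0.41 and -0.36. Libraries 3 and 2, farthest from uninjured muscle in both sets, also had the lowest scaling factors, 0.71 and 0.77, against 0.91 and 0.95 in libraries 1 and 4. The part of the scaling factors in this was not tested. With library totals the 184 genes kept library 3 lowest, at -1.93, while the 44 genes ran from -0.04 in library 2 to 0.15 in library 4.

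**Figure D3:**
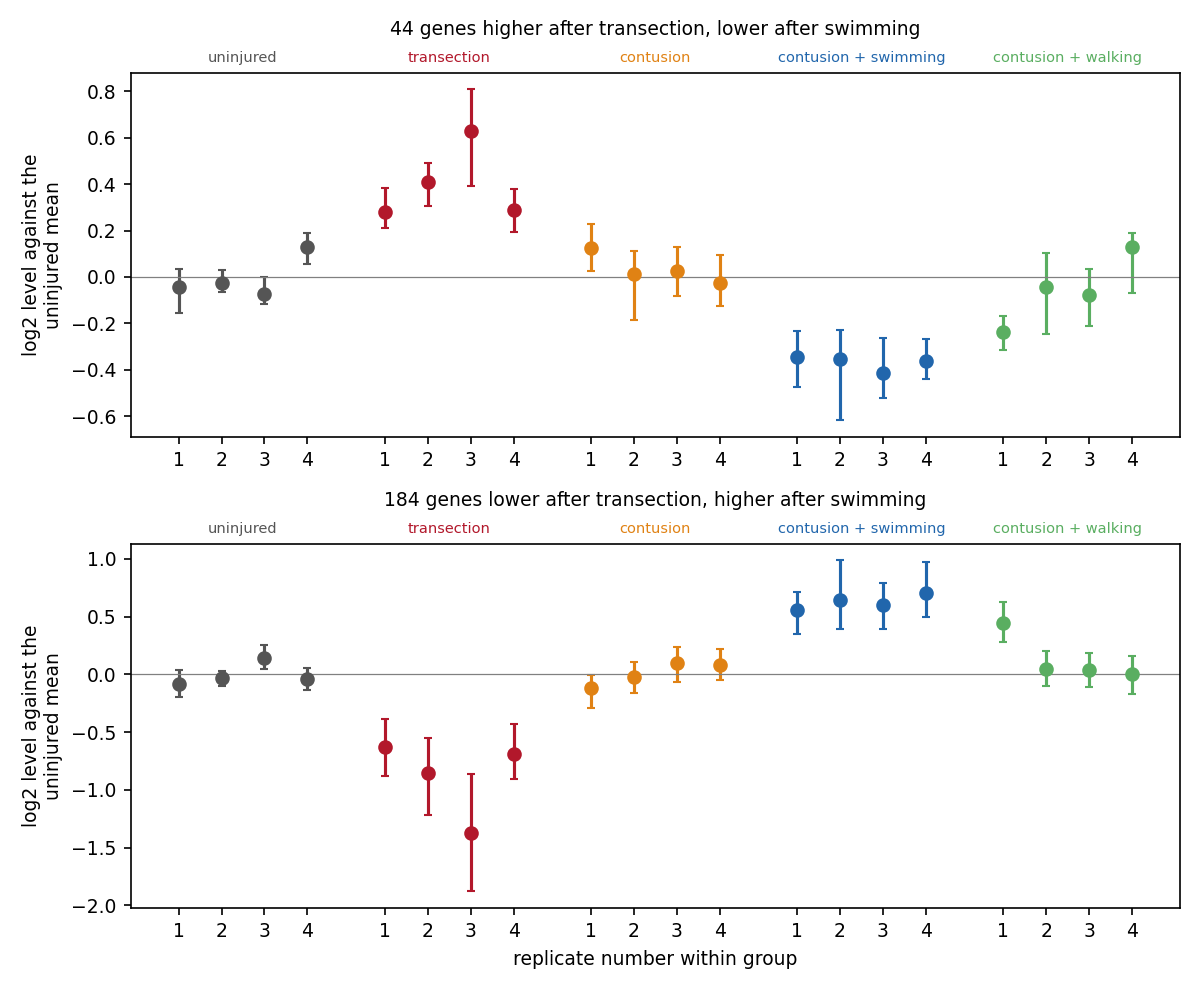
Median log2 level of the chosen genes in each library against the uninjured mean, with bars over the middle 50% of genes, for the 44 genes (top) and the 184 genes (bottom). Contusion libraries and walking libraries 2 to 4 lie between -0.11 and 0.13, while walking library 1 lies toward the swimming libraries in both sets, at -0.24 and 0.44.

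After contusion without exercise, the group mean lay inside the uninjured range in 141 of the 184 genes (76.6%), above it in 28 and below it in 15. It lay inside in 29 of the 44 genes (65.9%), above in 9 and below in 6. Over all 11566 genes it lay inside in 65.6%, so the share of the 44 was that of the table. All 4 contusion libraries lay above the range in 6 of the 184 genes and below it in 4, against 3.71 and 4.12% of all genes, and in 0 and 0 of the 44. The median log2 difference of contusion minus uninjured was 0.00 for the 184 genes, with the middle 50% between -0.08 and 0.12, and 0.04 for the 44, against 0.01 for all tested genes. The uninjured libraries also entered the rule, so these values carry no test. In all 228 genes the contusion and the walking mean lay between the transection and the swimming mean. The rule places transection and swimming on opposite sides of the uninjured range, so a group near uninjured muscle falls between them. This order was not counted over all genes.

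Contusion library 1 lay on the transection side of the other contusion libraries in both sets with TMM scaling, though for the 44 genes not with library totals. In it the median level was -0.11 for the 184 genes and 0.12 for the 44, and this library was the lowest of its group in 109 of the 184 genes and the highest in 28 of the 44. Over all genes it was lowest in 23.1% and highest in 23.7%. The other contusion libraries were at -0.02, 0.10 and 0.08 for the 184 genes and at 0.01, 0.03 and -0.03 for the 44. Contusion library 1 had the lowest scaling factor of its group, 0.93, and its 50 most abundant genes took 51.3% of its counts, the most among contusion libraries. The part of these in the result was not tested. With library totals its median level was -0.30 for the 184 genes, farther from 0, and -0.05 for the 44, on the other side of 0.

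Shallow water walking against contusion alone is the comparison in which neither group entered the range requirements of the rule. Both did enter the scaling, the filter on low counts and the mean over 20 libraries. Chosen from uninjured, transection and swimming libraries alone, the sets kept 39 of the 44 genes and 171 of the 184. No chosen gene passed: of 13398 genes tested, 0 were called (0%; edgeR quasi-likelihood test, adjusted p below 0.05), and the smallest adjusted p was 1.00. DESeq2 and voom also called 0 genes. Without adjustment, 439 genes had a p under 0.05 in edgeR, 454 in DESeq2 and 1319 in voom. At an unadjusted p under 0.05, 12 of the 184 genes were higher after walking and 0 lower, where 1.19% of all genes were higher and 2.09% lower. Of the 44 genes, 6 were lower and 0 higher. All 4 walking libraries lay above all 4 contusion libraries in 7 of the 184 genes (0.925% of all genes), and below them in 3 of the 44 (1.97% of all genes).

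No gene passed the test, yet the differences of most chosen genes lay on the swimming side. The log2 difference of walking minus contusion was above 0 in 164 of the 184 genes (89.1%), with a median of 0.15 and the middle 50% between 0.07 and 0.25. Over all tested genes 51.0% were above 0 and the median was 0.01. Among the 44 genes 35 were below 0 (79.5%), with a median of -0.09. Genes measured in the same 8 libraries are not independent. With library totals the median of all tested genes was 0.083, with 8925 of 13398 above 0 and 4473 below. That of the 184 genes was then 0.24, with 179 above 0, and that of the 44 genes -0.017, with 26 below 0.

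**Figure D4:**
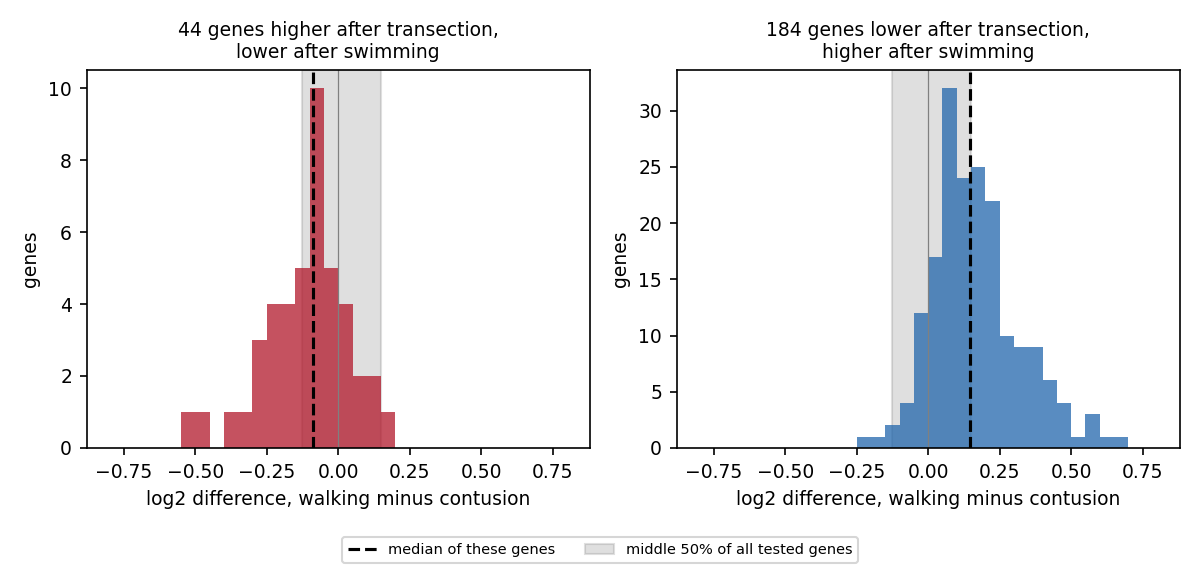
Number of genes by log2 difference of walking minus contusion, for the 44 genes (left) and the 184 genes (right), with the median of each set dashed and the middle 50% of all tested genes shaded. The medians are -0.09 and 0.15, and most genes of each set lie on the side where swimming placed them.

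The lean toward swimming was largest in walking library 1. In that library 169 of the 184 genes lay above the uninjured range and 4 below it, while walking libraries 2, 3 and 4 had 50, 49 and 46 above and 28, 31 and 36 below. Of all 11566 genes 30.7% lay above the range in walking library 1 and 29.6% below. In walking libraries 2, 3 and 4, 27.2, 26.6 and 25.0% of the 184 genes lay above the range, near the 22.9, 26.5 and 21.8% of all genes. Walking library 1 was used as labelled, and whether its label holds was not tested. Walking library 1 lay above all 4 contusion libraries in 154 of the 184 genes (83.7%, against 24.8% of all genes). It lay inside the swimming range in 61.4% of the 184 genes, below the 70.4% of all genes. Its median level was 0.44 for the 184 genes, against 0.05, 0.03 and 0.01 in walking libraries 2, 3 and 4 and 0.56 in the lowest swimming library.

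Walking library 1 was also the farthest toward swimming for the 44 genes with TMM scaling, though not with library totals. It lay below the uninjured range in 32 of them and above it in 1, and below all 4 contusion libraries in 32 (72.7%, against 25.2% of all genes). Its median level was -0.24, against -0.04, -0.08 and 0.13 in walking libraries 2 to 4. Walking library 4 lay above the uninjured range in 22 of the 44 genes and below it in 4, where 21.8% of all genes were above and 22.4% below.

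Without walking library 1, walking minus contusion had a median of 0.03 for the 184 genes, with 106 above 0 and 78 below, against 0.15 with it. For the 44 genes the median was -0.05, with 28 below 0, against -0.09 with it. At an unadjusted p under 0.05, 3 of the 184 genes (1.63%) were then higher, against 2.35% of all genes, and 4 of the 44 (9.09%) lower, against 2.55% of all genes. edgeR called 0 genes. Leaving out contusion library 1 instead gave medians of 0.09 for the 184 genes and -0.05 for the 44, the latter as near 0 as without walking library 1. Without walking library 4 the median of the 44 genes was -0.15.

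Walking library 1 also had the highest scaling factor of its group, 1.16, within the range of the swimming libraries, and its 50 most abundant genes took the smallest share, 44.3%. Walking libraries 2, 3 and 4 had factors of 1.06, 0.99 and 0.95 and shares of 47.3, 48.5 and 48.7%. The part of this in the result was not tested. With library totals as the only scaling walking library 1 still stood at 0.58 for the 184 genes, against 0.05, -0.06 and -0.15 in the other walking libraries. For the 44 genes it stood at -0.09 with library totals, between -0.16 in walking library 3 and -0.04 in walking library 2. In that set it was the lowest walking library with TMM scaling and with median-of-ratios scaling, at -0.24 in both, and not with library totals.

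**Figure D5:**
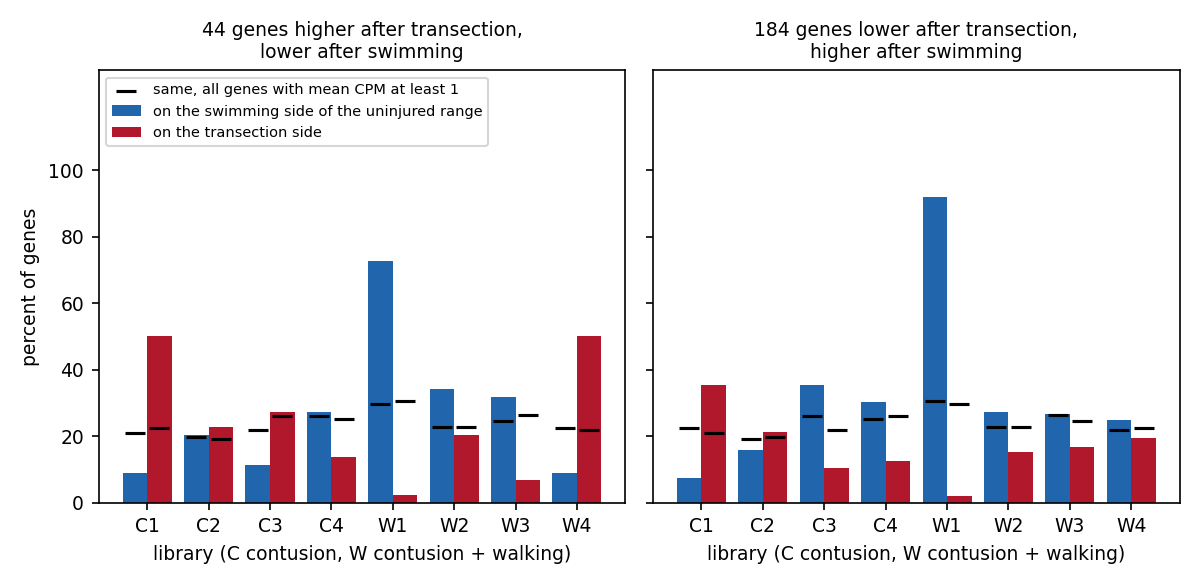
Percent of the chosen genes that lay outside the uninjured range in each contusion (C) and walking (W) library, on the swimming side (blue) or the transection side (red), with dashes for all genes with a mean of at least 1 CPM. In walking library 1, 91.8% of the 184 genes and 72.7% of the 44 lay on the swimming side, while contusion library 1 had 35.3% of the 184 and 22 of the 44 on the transection side.

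Swimming overlapped walking in more of these genes than it overlapped contusion, as it also did over all genes. All 4 swimming libraries lay above all 4 contusion libraries in 149 of the 184 genes (7.58% of all genes) but above all 4 walking libraries in 51 (2.94% of all genes). For the 44 genes swimming lay below contusion in 32 (7.67% of all genes) and below walking in 12 (3.91%). All 4 transection libraries lay below all 4 contusion libraries in 159 of the 184 genes (13.7% of all genes) and below all 4 walking libraries in 170 (12.9%). They lay above contusion in 25 of the 44 (10.1%) and above walking in 31 (11.3%). The swimming and transection values chose the genes, so these counts are a description. Walking library 1 lay inside the swimming range in 113 of the 184 genes, against 14, 18 and 17 in walking libraries 2, 3 and 4. For the 44 genes it did so in 21 (47.7%), against 6, 6 and 2. Of all 11566 genes it did so in 8141 (70.4%), against 5944, 6573 and 5784. Walking library 1 was therefore the highest over all genes too. In each walking library the share inside the swimming range was smaller in both sets than over all genes. The part of walking library 1 in the overlap of swimming with walking was not tested.

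Against uninjured muscle, the walking mean lay above the range in 74 of the 184 genes (40.2%) and below it in 4, where 21.7 and 18.1% of all genes did. All 4 walking libraries lay above the range in 13 of the 184 (4.54% of all genes) and below it in 1 (5.49%). In the 44 genes the walking mean was inside the range in 33, above it in 1 and below it in 10, and all 4 libraries were below it in 2. The median log2 difference of walking minus uninjured was 0.15 for the 184 genes and -0.07 for the 44, against 0.02 for all tested genes. Without walking library 1 it was 0.03 and -0.04. The median coefficient of variation of the 184 genes was 20.1% in walking libraries and 12.7% in contusion libraries, against 16.1 and 13.9% over all genes. For the 44 genes it was 12.5% in walking and 9.4% in contusion libraries. The part of walking library 1 in this spread was not tested.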

How the data were processed

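Poly-A RNA of rat soleus was made into stranded libraries, per the labels' protocols. The authors deposited whole-number counts per Ensembl gene, not normalised. The submitters' processing notes name FastQC 0.10.1, HTSeq and build rn6; the aligner, annotation and strand setting are not given in the sources used here, so overlapping genes and near-identical copies may share counts. Columns were matched to libraries by their labels. Of 24613 genes, 13398 passed filterByExpr of edgeR 4.0.16 (R 4.3.3, minimum count of 10). One fit of 5 group means to 20 libraries (15 residual degrees of freedom, TMM scaling) gave log2 differences (prior count 0.125), standard errors and quasi-likelihood tests with Benjamini-Hochberg adjustment over all genes, called below 0.05. Median levels per library used 0.125 added to each CPM. The script was tested on simulated data. DESeq2 1.42.0, voom in limma 3.58.1, other scalings and filters, a replicate block and left-out libraries were alternatives.

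The members and lists were chosen with earlier results of these data known. The name table pairs 0 of its 47357 genes with an Ensembl identifier, so the gene lists written for this work were not used, and by rule the first 2 identifiers of each direction are named, ranked by the smaller of their 2 log2 ratios. No 2 replicates looked like copies: over 30 within-group pairs, the chi-square of their counts per degree of freedom was 26.5 or more. No label says which rat gave which library, so p-values measure the spread between these samples, which may be technical.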

Additional observations from a re-analysis of the deposited data

Results flagged for a closer look

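In 5 of 50 sets of 4 replicate values, 1 value stood far outside the others; chance alone flags about 1 in 20 sets. The sets covered library measures, median levels of the chosen genes and CPM of the named genes. Walking library 1 stood at a median log2 level of 0.44 for the 184 genes that were lower after transection and higher after swimming, and the next highest walking library at 0.05. Walking library 4 held 36604027 counts, against 23665744 in the next. The scaling factor of uninjured library 4 was 0.982 and the next lowest 1.08. Contusion library 2 held 1.70 CPM of ENSRNOG00000049067, and the next lowest 2.84 CPM. Transection library 3 held 48.4 CPM of ENSRNOG00000011976, and the next highest 25.2 CPM.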

How the results depend on the processing

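The 44 genes higher after transection and lower after swimming numbered 2 with library totals, 9 where the nearest libraries had to differ by at least 0.1 on the log2 scale (chosen after seeing the data), 125 without transection library 3 and swimming library 2, and 48 to 111 when a single library was left out; the counts over 1.5 times the main one came without uninjured library 1 (102) or 4 (106), swimming library 2 (111) or 4 (71), or transection library 4 (96). The 184 genes of the other direction numbered 302 with library totals, 104 with the distance limit and 178 to 239 with a library left out. Fewer libraries make the ranges narrower and the rule easier to meet. The other scalings, filters and limits kept both counts within 1.5 times. Walking against contusion had 0 called genes under each alternative run, with 262 to 1319 genes at an unadjusted p under 0.05 and 439 in the fit used. Medians of walking minus contusion ran from 0.03 to 0.19 for the 184 genes and from -0.15 to -0.05 for the 44 with a library left out. Contusion minus uninjured for the 44 genes was -0.059 with library totals; with a library left out it ran from 0.00 to 0.09, and from -0.05 to 0.06 for the 184. Walking minus uninjured, with a library left out, ran from 0.03 to 0.21 for the 184 genes and from -0.11 to -0.02 for the 44. The labels number replicates alike in each group. With the replicate number as a block, walking against contusion called 0 genes, and 420 had an unadjusted p under 0.05. Same-numbered contusion and walking libraries deviated from their group means with correlations of 0.08, 0.07, 0.26 and -0.14, so the numbers were not taken as pairs.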
